A study of Bos taurus with 10 samples.

Results

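The genes described here are 9 enzymes and enzyme partners that bring carbon and reducing power to fatty acid synthesis in cattle fat: ACSS2, ACLY, PC, ACACA, FASN, THRSP, ME1, PGD and IDH1. They were chosen by name for their place in the acetate, citrate and NADPH routes, with earlier results of these data known. All 9 were found among the 12674 genes of the deposited table. RNA was measured by sequencing in adipose tissue (Bos taurus) of 5 adult female Angus-cross heifers. Each heifer gave intramuscular fat, the marbling fat held between muscle fibres, and subcutaneous fat, which lies under the skin. There was thus 1 library per depot and heifer, 5 libraries in each depot, with no treatment or altered genotype named for either. Libraries with the same number in both depots were taken as the same heifer, which no label states. The stated purpose of the comparison was the later and slower filling of the intramuscular depot.

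Fatty acid synthesis starts in the cytosol from acetyl-CoA. Ruminants take much of that carbon from acetate made by microbes in the rumen, which ACSS2 activates, whereas other mammals rely more on citrate from glucose, which ACLY cleaves. Acetyl-CoA carboxylase (ACACA) makes malonyl-CoA, fatty acid synthase (FASN) builds palmitate from it, and each turn of chain growth spends NADPH, which cytosolic isocitrate dehydrogenase (IDH1), the pentose phosphate pathway (PGD) and malic enzyme (ME1) can supply.

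All 9 genes were on average lower in intramuscular than in subcutaneous fat, and PC and PGD passed the test. PC, which makes oxaloacetate for citrate formation, averaged 275 ± 82.0 CPM (counts per 1000000 counts of the scaled library) in the intramuscular libraries, against 617 ± 150.4 CPM in the subcutaneous ones. PGD averaged 425 ± 225 CPM in the intramuscular libraries, against 964 ± 283 CPM in the subcutaneous ones (SD, n = 5 each). The log2 fold changes of the 9 genes, intramuscular over subcutaneous, ran between -1.18 (PGD) and -0.43 (ACLY), with a median of -0.997. The median over all 12521 genes tested was -0.04, and 52.9% of them were negative. By edgeR's quasi-likelihood test at an adjusted p of 0.05, 2 of the 9 fell and 0 rose, where 5.47% of all tested genes fell and 6.73% rose. At an unadjusted p of 0.05, 7 of the 9 were lower and 0 higher, where 16.2% of all tested genes were lower and 14.5% higher. DESeq2 called 5 of the 9 lower and 0 higher, where it called 9.24% of all genes lower and 10.8% higher. With the heifer as a block in the same test, 5 of the 9 fell (PC, PGD, ACSS2, ME1 and FASN) and 0 rose, where 6.95% of all genes fell and 8.13% rose. The authors' deposited table also comes from DESeq2 on these counts, so it is not a separate result. In it, 5 of the 9 were lower at an adjusted p of 0.05, where 9.24% of all genes were. Of these, ME1, PC and PGD carry the category of downregulated genes in the authors' deposited table. The smallest fall in that category is a log2 fold change of -1.00018, and ACSS2 with -0.99989 and FASN with -0.989 stand just outside it in the authors' deposited table.

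**Figure D1:**
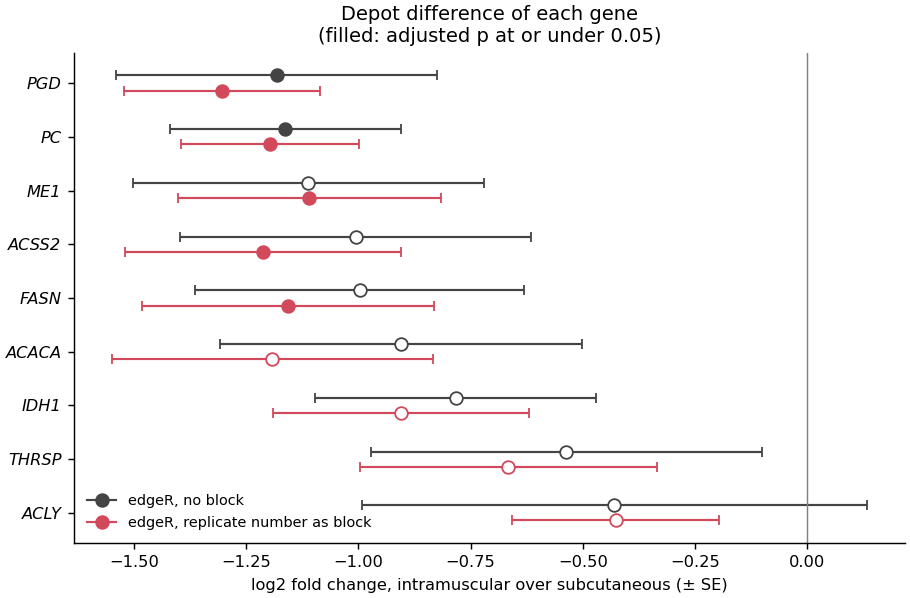
Log2 fold change (intramuscular over subcutaneous fat) of the 9 genes with standard errors, from the fit without and the fit with the heifer as a block. All 9 points lie below 0 in both fits, between -1.18 and -0.43 without the block.

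The intramuscular libraries were not alike, and this touches every value below. Totals over the listed genes were 9392739 to 14836808 counts in intramuscular fat and 13776094 to 17685678 counts in subcutaneous fat. The mean log2 CPM of 11 mature adipocyte markers stood, against the subcutaneous mean, at -1.94, -0.65, -0.75, -0.17 and -0.13 in intramuscular fat of heifers 1 to 5, and between -0.07 and 0.08 in subcutaneous fat. Of a list of 38 striated muscle genes, 8 had values, and all 8 were higher in intramuscular fat. They took 0.271%, 0.0775%, 0.153%, 0.0437% and 0.0517% of the counts there (heifers 1 to 5), against at most 0.000547% in subcutaneous fat, where NMRK2, LRRC30, ANO5 and CACNG6 were at 0 in every library. The other muscle genes of the list, among them ACTA1, CKM, MB and TTN, had no values. This share therefore does not measure the whole muscle content of a library. Macrophage markers were lower in intramuscular fat in 4 of 8 (median log2 fold change -1.16), endothelial markers in 3 of 8 (median -0.59) and stromal progenitor markers in 3 of 8 (median -0.66), with 0 higher in each list by edgeR, at an unadjusted p of 0.05 or by DESeq2. In the same order, 5, 5 and 3 were lower at an unadjusted p of 0.05 and 4, 4 and 3 by DESeq2. Of the 11 adipocyte markers, FABP4 fell in edgeR's test, 6 were lower at an unadjusted p of 0.05, 4 by DESeq2 and 3 with the heifer as a block, with 0 higher in each and a median of -0.77. Of all genes, 5.47% were lower by edgeR, 16.2% at an unadjusted p of 0.05, 9.24% by DESeq2 and 6.95% with the block. The shares that were higher were 6.73%, 14.5%, 10.8% and 8.13% in the same order. The adipocyte-defining genes were present in both depots: ADIPOQ was at 301 to 1104 CPM in intramuscular and 446 to 1162 CPM in subcutaneous fat, and PLIN1 at 832 to 2599 CPM in intramuscular and 1723 to 3568 CPM in subcutaneous fat. ADIPOQ was higher in intramuscular fat of 4 of the 5 heifers (log2 fold change 0.20, edgeR adjusted p = 0.743). In pieces of tissue, fewer cells of a type and less RNA per cell cannot be told apart, and the part of cell makeup in the differences below was not tested.

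Intramuscular fat of heifer 1, which had the fewest adipocyte and the most muscle transcripts, also held the lowest value of 9 of the 9 genes. The median of the 9 genes relative to the subcutaneous mean was -2.41, -1.19, -1.02, -0.34 and -0.57 on the log2 scale in intramuscular fat of heifers 1 to 5. In subcutaneous fat it was -0.50, 0.08, 0.31, 0.01 and 0.04. The highest intramuscular value of a gene came from heifer 4 in 5 genes and from heifer 5 in the other 4. The spread of log2 CPM was wider in intramuscular than in subcutaneous fat for 9 of the 9 genes. It was nearly equal for ACLY (SD 1.14 against 1.08) and ME1 (0.79 against 0.74). The adipocyte marker mean also spread more in intramuscular fat (SD 0.73 against 0.064), and the share of all genes that did so was not computed. Together they took 0.727% to 3.03% of all counts in intramuscular fat and 3.03% to 4.06% in subcutaneous fat, of which FASN alone took 0.429% to 1.69% in intramuscular fat and 1.36% to 2.59% in subcutaneous fat. Without intramuscular fat of heifer 1 all 9 log2 fold changes stayed negative, between -0.99 (PC) and -0.19 (ACLY), and 1 of the 9, PC, passed, where 2.95% of all genes fell. Without intramuscular fat of heifers 1 and 3, which had the most muscle transcripts, they lay between -0.94 (PC) and -0.03 (ACLY), and 0 passed in edgeR, where 0.531% of all genes fell. At an unadjusted p of 0.05, 4 of the 9 were lower in that fit, where 9.69% of all genes were.

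**Figure D2:**
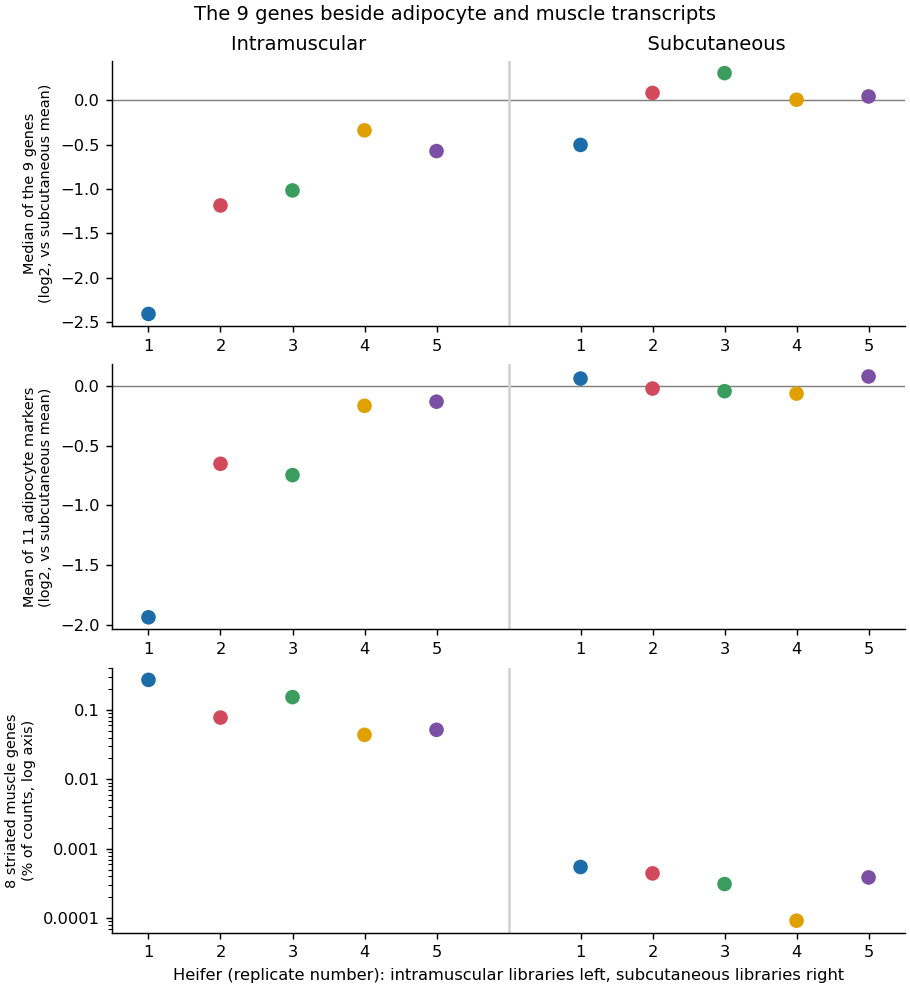
Median of the 9 genes and mean of the adipocyte markers in each library, both in log2 units relative to the subcutaneous mean, and share of counts from 8 striated muscle genes. Intramuscular fat of heifer 1 is lowest on both scales (-2.41 and -1.94) and has the largest muscle share (0.271%).

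Of the enzymes that feed carbon in, acetyl-CoA synthetase ACSS2 (ENSBTAG00000013303, chr13:64186743-64233568, + strand) is the acetate entry. Coordinates are those of the deposited table, whose genome build is not given in the sources used here. ACSS2 was at 652, 1712, 2304, 4102 and 3116 CPM in intramuscular fat of heifers 1 to 5, and at 3208, 4388, 6201, 4686 and 5382 CPM in subcutaneous fat. It was lower in the intramuscular sample of all 5 heifers, but the depots overlapped, since heifer 4's intramuscular value exceeded heifer 1's subcutaneous value. Its log2 fold change of -1.01 ± 0.39 (SE) did not pass (edgeR adjusted p = 0.104). With the heifer as a block it was -1.21 ± 0.31 and passed (edgeR adjusted p = 0.0315).

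ACLY (ENSBTAG00000016740, chr19:42049435-42093855, - strand), which splits citrate into acetyl-CoA and oxaloacetate, varied more between heifers than between depots. It was at 163, 300.1, 431, 951 and 1074 CPM in intramuscular fat, and at 377, 354, 359, 1605 and 1238 CPM in subcutaneous fat. Heifers 4 and 5 were the highest in both depots, and heifer 3 was higher in intramuscular fat. The largest value was 6.58 times the smallest within intramuscular fat and 4.54 times within subcutaneous fat, the widest range of the 9 genes in each depot. Its log2 fold change of -0.43 ± 0.56 did not pass (edgeR adjusted p = 0.639), nor did the blocked value of -0.43 ± 0.23 (edgeR adjusted p = 0.232). In CPM, ACLY was lower in the intramuscular sample of 4 of the 5 heifers. As a share of unscaled counts heifer 5 was also higher in intramuscular fat (0.107% against 0.105%). Without subcutaneous fat of heifer 4 the log2 fold change was 0.005. That fit had no block and kept the high intramuscular value of heifer 4, so it does not show the direction within heifers.

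PC (ENSBTAG00000019700, chr29:44862572-44965356, - strand), the mitochondrial pyruvate carboxylase, separated the depots without overlap. It was at 136, 299, 274, 331 and 337 CPM in intramuscular fat, and at 425, 725, 805, 542 and 586 CPM in subcutaneous fat. In CPM every intramuscular value lay below every subcutaneous one. PC shared this pattern with IDH1 among the 9 genes, and it held for 5.04% of all tested genes. As a share of unscaled counts PC kept it (at most 0.0336% against at least 0.0418%), and IDH1 did not. The log2 fold change of -1.16 ± 0.26 passed (edgeR adjusted p = 0.0132), and the blocked value was -1.20 ± 0.20 (edgeR adjusted p = 0.00601). It passed in 10 of the 10 fits that left out 1 library, with log2 fold changes between -1.27 and -0.99 and edgeR adjusted p between 0.00902 and 0.0367. Without the intramuscular libraries of heifers 1 and 3 together it did not pass (edgeR adjusted p = 0.0658).

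The gene LRFN4 lies within PC on the opposite strand with a mean of 147 counts against 6644 for PC. TADA2A, also on the opposite strand, overlaps ACACA where ACACA transcription starts, with 296 counts against 15750. No source used here gives the strand setting of the counting, so reads of these pairs cannot be told apart.

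**Figure D3:**
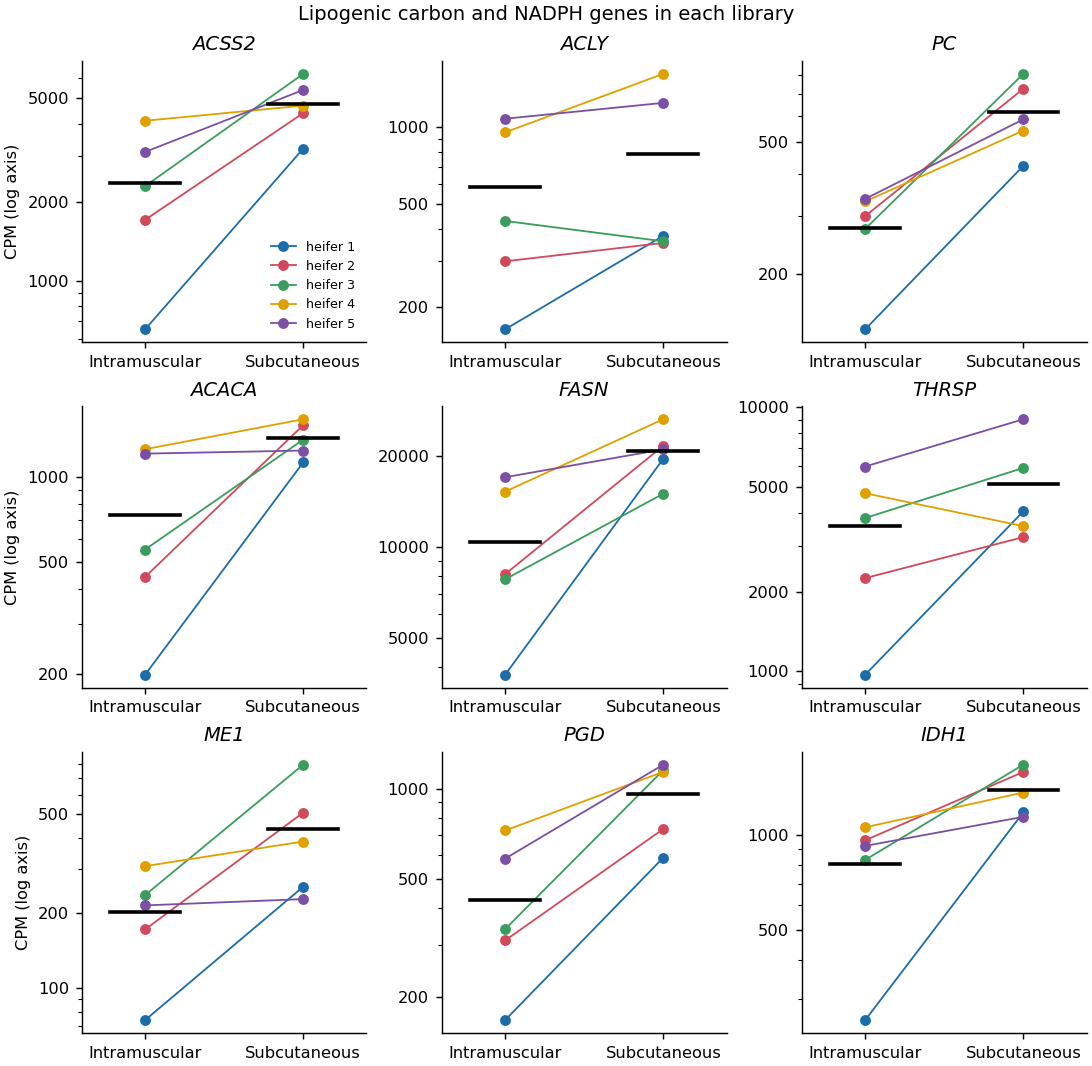
CPM of each of the 9 genes in the 10 libraries on a log axis, with lines joining the 2 depots of a heifer and bars at the means. PC and IDH1 show no overlap of depots in CPM, which for IDH1 does not hold in unscaled counts. Intramuscular fat of heifer 1 is the lowest point in 9 of the 9 panels.

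Among the enzymes that build the chain, FASN (ENSBTAG00000015980, chr19:50775674-50796012, + strand) had the highest counts of the 9 genes. It was at 3771, 8112, 7803, 15223 and 16985 CPM in intramuscular fat, and at 19544, 21592, 14984, 26424 and 21008 CPM in subcutaneous fat. All 5 heifers were lower in intramuscular fat in CPM, with log2 differences that ranged between -2.37 in heifer 1 and -0.31 in heifer 5. Its log2 fold change of -0.997 ± 0.37 did not pass (edgeR adjusted p = 0.0887), whereas the blocked value of -1.16 ± 0.32 did (edgeR adjusted p = 0.0437). Without intramuscular fat of heifer 1 the unblocked value was -0.78 (edgeR adjusted p = 0.113).

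ACACA (ENSBTAG00000017567, chr19:13441162-13726679, - strand), which commits acetyl-CoA to fatty acid synthesis, was at 199, 441, 552, 1252 and 1208 CPM in intramuscular fat. It was at 1125, 1524, 1354, 1599 and 1239 CPM in subcutaneous fat. Its subcutaneous values had the narrowest range of the 9 genes relative to their level, while heifers 4 and 5 reached the subcutaneous range in intramuscular fat. Its log2 fold change of -0.91 ± 0.40 did not pass (edgeR adjusted p = 0.149), nor did the blocked one of -1.19 ± 0.36 (edgeR adjusted p = 0.0543).

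THRSP (ENSBTAG00000011666, chr29:17989041-17994955, - strand) encodes Spot 14, a small nuclear and cytosolic protein tied to lipogenesis in rodents and to ACACA through its partner MID1IP1. It was at 972, 2258, 3813, 4732 and 5974 CPM in intramuscular fat, and at 4040, 3228, 5903, 3552 and 9022 CPM in subcutaneous fat. Heifer 4 was higher in intramuscular fat and the other 4 were lower, so the depots overlapped widely. Neither the log2 fold change of -0.54 ± 0.44 (edgeR adjusted p = 0.428) nor the blocked one of -0.67 ± 0.33 (edgeR adjusted p = 0.195) passed. Leaving out 1 library gave log2 fold changes between -0.81 (without intramuscular fat of heifer 5) and -0.24 (without subcutaneous fat of heifer 5).

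Of the NADPH suppliers, PGD (ENSBTAG00000013527, chr16:43158594-43173975, - strand) catalyses the second NADPH-forming step of the pentose phosphate pathway. It was at 168, 310.4, 339, 725 and 583 CPM in intramuscular fat, and at 588, 733, 1155, 1140 and 1205 CPM in subcutaneous fat. All 5 heifers were lower in intramuscular fat, but heifer 4's intramuscular value exceeded heifer 1's subcutaneous value. The log2 fold change of -1.18 ± 0.36 passed narrowly (edgeR adjusted p = 0.0483), and the blocked value of -1.30 ± 0.22 passed (edgeR adjusted p = 0.00647). The unblocked call held in 2 of the 10 fits that left out 1 library, those without intramuscular fat of heifer 4 or subcutaneous fat of heifer 1. In the other 8 the adjusted p was between 0.0532 and 0.110.

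ME1 (ENSBTAG00000005681, chr9:23131908-23352169, - strand), the cytosolic malic enzyme that turns malate into pyruvate and NADPH, was at 74.0, 172, 236, 309 and 215 CPM in intramuscular fat. It was at 255, 508, 794, 389 and 228 CPM in subcutaneous fat. All 5 heifers were lower in intramuscular fat in CPM, with near-equal values in heifer 5. As a share of unscaled counts heifer 5 was higher in intramuscular fat (0.0214% against 0.0193%). The ME1 log2 fold change of -1.11 ± 0.39 did not pass (edgeR adjusted p = 0.0777), and the blocked value of -1.11 ± 0.29 did (edgeR adjusted p = 0.0358).

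IDH1 (ENSBTAG00000020527, chr2:96510261-96532002, - strand), held to be a main NADPH source in ruminant fat, was at 258, 960.5, 832, 1056 and 922 CPM in intramuscular fat. It was at 1177, 1583, 1670, 1362 and 1140 CPM in subcutaneous fat. The depots did not overlap in CPM, but they did as a share of unscaled counts. There subcutaneous fat of heifer 5 (0.0968%) lay below intramuscular fat of heifers 2 and 4 (0.104% and 0.107%). Intramuscular fat of heifer 1 stood far below the other 4 intramuscular values. The log2 fold change of -0.78 ± 0.31 did not pass (edgeR adjusted p = 0.112), and without that library it was -0.55 (edgeR adjusted p = 0.0853). The blocked value of -0.91 ± 0.29 did not pass either (edgeR adjusted p = 0.0631).

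Per length, the 9 genes had the same order of mean level in both depots. In TPM (transcripts per 1000000, computed over the listed genes from the deposited exon lengths), THRSP led with 5441 ± 2900 in intramuscular fat and 6746 ± 2127 in subcutaneous fat. FASN followed with 2255 ± 1136 TPM in intramuscular and 4072 ± 1140 TPM in subcutaneous fat, and ACSS2 with 1715 ± 906 TPM in intramuscular and 3026 ± 495 TPM in subcutaneous fat. IDH1 averaged 575 and 881 TPM, PGD 349 and 695 TPM, and ACLY 279 and 334 TPM in intramuscular and subcutaneous fat. At the low end were ACACA with 182 and 308 TPM, ME1 with 131 and 250.0 TPM, and PC with 92.0 and 181 TPM, again in intramuscular and subcutaneous fat. Ranges of neighbours in this order overlapped in both depots, except that in subcutaneous fat every ACSS2 value exceeded every IDH1 value. Within intramuscular libraries the higher gene of a neighbouring pair led in all 5, apart from PGD over ACLY (4) and ACACA over ME1 (3). Within subcutaneous libraries the higher gene led in 4 or 5, apart from ACLY over ACACA (2). On this scale the acetate enzyme ACSS2 stood above the citrate enzyme ACLY in each of the 10 libraries. The direction within heifer 5 depended on the scale. In TPM, intramuscular fat of heifer 5 exceeded its subcutaneous fat for FASN (3597 against 3352), ACACA (294 against 227) and ACLY (502 against 436). The same held for ME1 (135 against 108) and IDH1 (636 against 592), whereas ACSS2, PC, PGD and THRSP stayed lower. The counts of heifers given above rest on scaled CPM.

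The balance between routes was compared within libraries as log2 ratios of 6 gene pairs, with an exact two-sided permutation test of 5 against 5 libraries and p-values adjusted over the 6. The ratio ACSS2/ACLY, acetate over citrate, had a mean of 2.11 ± 0.39 in intramuscular fat and 2.90 ± 1.06 in subcutaneous fat. The difference of -0.78 ± 0.50 (SE) did not pass (exact p = 0.143, adjusted 0.381). It was lower in intramuscular fat in 4 of 5 heifers, and in subcutaneous fat it was lowest in heifers 4 and 5, whose ACLY was high. PC/ACLY differed by -0.77 ± 0.64 (exact p = 0.254, adjusted 0.381), PGD/IDH1 by -0.38 ± 0.31 (exact p = 0.246, adjusted 0.381) and ME1/IDH1 by -0.18 ± 0.26 (exact p = 0.5, adjusted 0.6). THRSP/FASN differed by 0.49 ± 0.38 (exact p = 0.238, adjusted 0.381). ACACA/FASN had nearly the same mean in both depots, -3.94 ± 0.28 in intramuscular fat and -3.91 ± 0.27 in subcutaneous fat, with a difference of -0.03 ± 0.17 (exact p = 0.881). Single libraries moved these differences: ACSS2/ACLY was -1.12 and PC/ACLY -1.15 without subcutaneous fat of heifer 4, and -0.48 and -0.46 without subcutaneous fat of heifer 3. PGD/IDH1 lay between -0.52 (without subcutaneous fat of heifer 2) and -0.21 (without intramuscular fat of heifer 2). ME1/IDH1 lay between -0.31 (without subcutaneous fat of heifer 5) and -0.000381 (without subcutaneous fat of heifer 3). THRSP/FASN lay between 0.29 (without subcutaneous fat of heifer 4) and 0.71 (without subcutaneous fat of heifer 5). In none of the 6 did the difference pass in the permutation or in the paired sign-flip test, whose smallest possible p with 5 heifers is 0.0625.

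**Figure D4:**
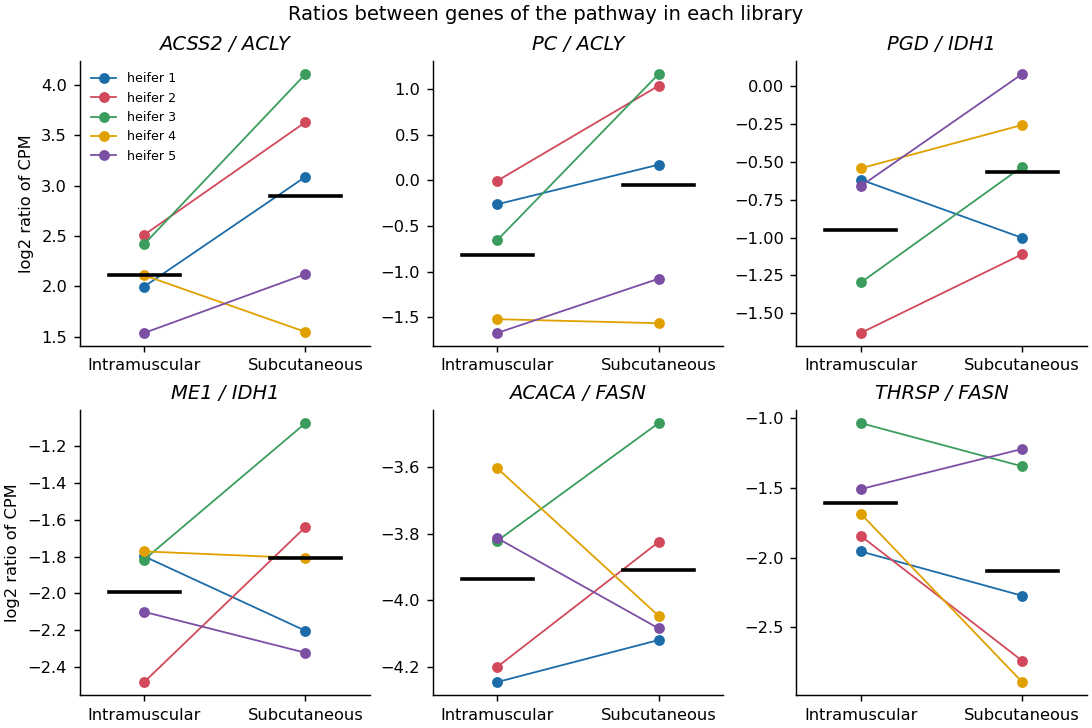
Log2 ratios of 6 gene pairs in each library, by depot, with means. Libraries of the 2 depots overlap in all 6 panels, most closely for ACACA/FASN (difference of means -0.03).

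Each gene was also set against the mean log2 CPM of the 11 adipocyte markers in its own library. FASN was lower by this measure in intramuscular fat of all 5 heifers, with a difference of -0.44 ± 0.17 (exact p = 0.0397, adjusted over the 9 genes 0.186). ACSS2 differed by -0.49 ± 0.24 and was also lower in 5 of 5 heifers, PC by -0.47 ± 0.20, PGD by -0.58 ± 0.25 and ACACA by -0.47 ± 0.24, each lower in 4 of 5 (adjusted exact p = 0.186 for each of the 4). ME1 differed by -0.38, IDH1 by -0.19, THRSP by 0.05 and ACLY by 0.30, with adjusted exact p between 0.440 and 0.849. IDH1 was lower in 5 of 5 heifers, ME1 in 3, THRSP in 2 and ACLY in 1. In the paired sign-flip test, whose smallest possible p is 0.0625, the adjusted p of the 9 genes lay between 0.1875 and 0.625. No difference passed after adjustment. Leaving out 1 library, ME1 ran between -0.59 and -0.11, IDH1 between -0.28 and -0.11 and ACLY between 0.10 and 0.66. The choice of markers moved the differences: against ADIPOQ and PLIN1 alone, FASN differed by -1.04, ACACA by -1.07, ACSS2 by -1.09, PC by -1.07 and IDH1 by -0.79 (adjusted exact p = 0.0571 for each). Against the same 2 markers PGD differed by -1.18 (adjusted exact p = 0.0595), ME1 by -0.98 (0.0714), THRSP by -0.55 (0.339) and ACLY by -0.30 (0.619), and again no difference passed. These 2 markers are not typical of the 11, whose median log2 fold change was -0.77. ADIPOQ (0.20) was the only marker with a positive log2 fold change, and PLIN1 was at -0.34.

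The other genes of the pathway were grouped in lists by function, and their counts stand against the same shares of all genes: 5.47% lower and 6.73% higher by edgeR, 16.2% and 14.5% at an unadjusted p of 0.05, and 9.24% and 10.8% by DESeq2. Of 6 genes for acetate uptake and use, 4 were tested and 0 passed in either direction in edgeR (1 lower and 0 higher at an unadjusted p of 0.05, 1 lower and 0 higher by DESeq2; median log2 fold change -0.37). The monocarboxylate transporters SLC16A7 (-1.14 ± 0.38, edgeR adjusted p = 0.0661) and SLC16A1 (-0.50 ± 0.25, edgeR adjusted p = 0.187) had the smallest p of these. With the heifer as a block, SLC16A7 fell (edgeR adjusted p = 0.00415).

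Of 31 citrate and pyruvate genes, 29 were tested, 1 rose and 0 fell in edgeR (5 higher and 5 lower at an unadjusted p of 0.05, 2 higher and 4 lower by DESeq2; median 0.09). The gene that rose was PDP1, a phosphatase that activates pyruvate dehydrogenase. It was at 59.3, 35.7, 34.2, 34.8 and 24.5 CPM in intramuscular fat and at 18.4, 13.8, 8.38, 20.8 and 11.8 CPM in subcutaneous fat, with no overlap. Its log2 fold change was 1.36 ± 0.28 (edgeR adjusted p = 0.00926), and its highest value was in intramuscular fat of heifer 1, the library with the most muscle transcripts, whose part in it was not tested. Without intramuscular fat of heifers 1 and 3 it did not pass (edgeR adjusted p = 0.0725). With the heifer as a block the citrate exporter SLC25A1 (-1.04, edgeR adjusted p = 0.0364) and the cytosolic aconitase ACO1 (-0.65, edgeR adjusted p = 0.0419) fell.

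Of 16 further NADPH genes, 15 were tested, 1 rose and 2 fell in edgeR (1 higher and 5 lower at an unadjusted p of 0.05, 1 higher and 3 lower by DESeq2; median -0.30). TALDO1, the transaldolase of the pentose phosphate pathway, fell to 584 ± 266 CPM in intramuscular fat, against 1772 ± 791 CPM in subcutaneous fat (log2 fold change -1.60 ± 0.39, edgeR adjusted p = 0.0203). Its call was lost without intramuscular fat of heifer 3 (edgeR adjusted p = 0.0584) and without subcutaneous fat of heifer 3 (0.0507). PGLS, the lactonase of the pentose phosphate pathway, fell with a log2 fold change of -0.82 (edgeR adjusted p = 0.0422). That call was lost without intramuscular fat of heifer 1, 2, 3 or 5 or subcutaneous fat of heifer 3 or 5 (edgeR adjusted p between 0.0505 and 0.105). NNT, the mitochondrial transhydrogenase that makes NADPH from NADH, rose to 106 ± 34.5 CPM in intramuscular fat, against 57.2 ± 13.8 CPM in subcutaneous fat (log2 fold change 0.89 ± 0.24, edgeR adjusted p = 0.0291). The NNT call was lost without intramuscular fat of heifer 1 (edgeR adjusted p = 0.0669) or heifer 3 (0.0842), or subcutaneous fat of heifer 3 (0.0580). NNT was highest in intramuscular fat of heifers 1 (155 CPM) and 3 (130 CPM), which had the most muscle transcripts. The part of muscle in its difference was not tested. The blocked fit called 1 higher and 5 lower, among them the transketolase TKT (-1.01, edgeR adjusted p = 0.0257) and ALDH1L1 (-0.91, edgeR adjusted p = 0.0408).

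**Figure D5:**
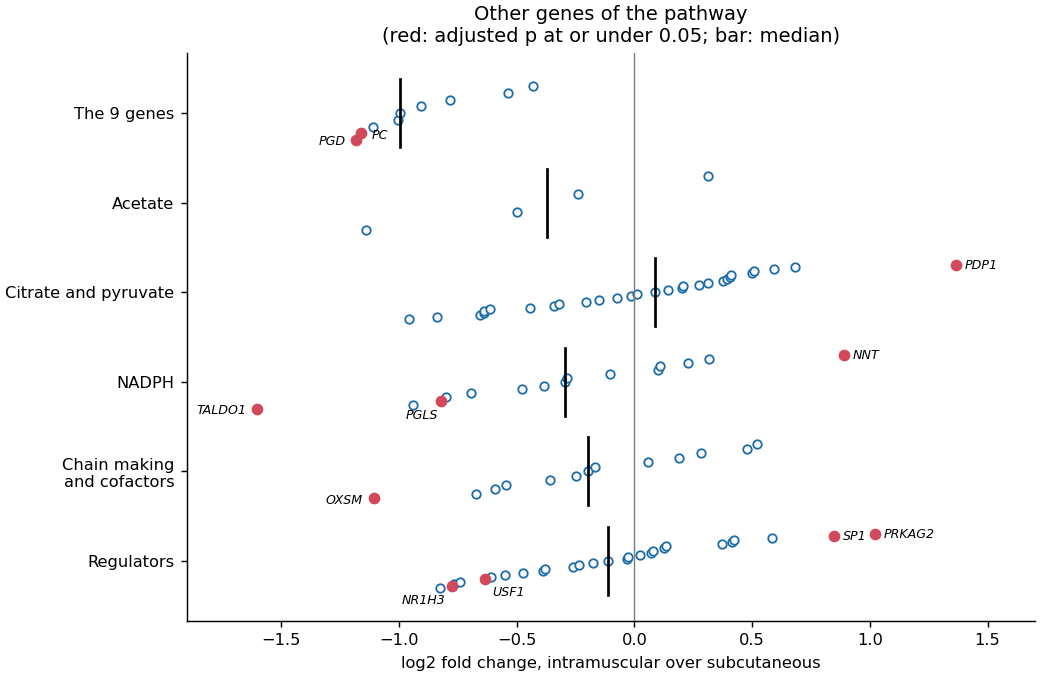
Log2 fold change (intramuscular over subcutaneous fat) of each tested gene of the 9 and of the other lists, with list medians as bars and genes that passed in red. The median of the 9 genes is -0.997, and those of the other lists drawn lie between -0.37 and 0.09. The adipocyte markers, which are not drawn, have a median of -0.77.

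All 13 genes for chain making and its cofactors were tested, 0 rose and 1 fell in edgeR (1 higher and 4 lower at an unadjusted p of 0.05, 0 higher and 3 lower by DESeq2; median -0.20). That gene, the mitochondrial ketoacyl synthase OXSM, was at 7.30 ± 2.79 CPM in intramuscular fat and 15.7 ± 4.05 CPM in subcutaneous fat (-1.11 ± 0.30, edgeR adjusted p = 0.0303). The OXSM call was lost without intramuscular fat of heifer 2, 3 or 5 or subcutaneous fat of heifer 3 or 4 (edgeR adjusted p between 0.0569 and 0.0804). ACACB, the paralog of ACACA that governs fatty acid oxidation, was at 79.5 ± 30.5 CPM in intramuscular fat and 55.4 ± 8.27 CPM in subcutaneous fat, and did not pass (0.52 ± 0.24, edgeR adjusted p = 0.157).

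Of 30 regulators, 27 were tested, 2 rose and 2 fell in edgeR (4 higher and 4 lower at an unadjusted p of 0.05, 3 higher and 4 lower by DESeq2; median -0.11), close to the shares over all genes. PRKAG2, a regulatory subunit of the AMP-activated kinase that inhibits ACACA, was at 92.8, 76.4, 82.8, 73.3 and 69.1 CPM in intramuscular fat and at 43.1, 42.0, 44.9, 35.4 and 28.9 CPM in subcutaneous fat. The depots were far apart, the log2 fold change was 1.02 ± 0.16 (edgeR adjusted p = 0.0017), and the call held in 10 of the 10 fits without 1 library and without intramuscular fat of heifers 1 and 3. PRKAG2 was highest in these last 2 libraries, which had the most muscle transcripts, and the part of muscle in its difference was not tested. The transcription factor SP1 rose (0.85, edgeR adjusted p = 0.0231), while NR1H3, the liver X receptor alpha (-0.77, edgeR adjusted p = 0.0300), and USF1, an activator of FASN (-0.64, edgeR adjusted p = 0.0432), fell. The SP1 call was lost without intramuscular fat of heifer 3 or 5 or subcutaneous fat of heifer 3 (edgeR adjusted p between 0.0511 and 0.0565). NR1H3 lost its call without intramuscular fat of heifer 1, 2 or 3 or subcutaneous fat of heifer 3 or 5 (edgeR adjusted p between 0.0562 and 0.0791). USF1 kept its call without subcutaneous fat of heifer 1 or 4 and lost it without any other library (edgeR adjusted p between 0.0535 and 0.0976). The blocked fit added MLXIPL, which encodes ChREBP (-0.77, edgeR adjusted p = 0.0328), and MID1IP1 (-0.77, edgeR adjusted p = 0.0215), both lower. SREBF1, which encodes SREBP-1, was at 448 ± 147 CPM in intramuscular fat and 584 ± 309 CPM in subcutaneous fat and did not pass (-0.38 ± 0.34, edgeR adjusted p = 0.466).

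Likeness of pattern was measured as the root mean square difference of log2 CPM profiles over the 10 libraries, each centred on its own mean, among 8878 genes with a mean of at least 10 CPM. The pairs closest among the 9 were ACSS2 with PGD (0.24 log2 units), FASN with ACACA (0.25), ACACA with ACSS2 (0.28) and PC with IDH1 (0.28). Outside the 9, the gene nearest to FASN was TIMP4 (0.23), to PC NIPSNAP1 (0.17), to PGD MGST1 (0.17), to IDH1 CHRDL1 (0.22), to ME1 BAIAP2L1 (0.28) and to THRSP ATF5 (0.28). The 5 genes nearest to the median profile of the 9 were NIPSNAP1 (0.18), the desaturase SCD (0.21), ISOC1 (0.21), CPT2 (0.22) and TIMP4 (0.23), where the median over all genes was 0.83. All of these profiles share the same libraries and the same difference between intramuscular samples.

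The gene nearest to ACLY was INSIG1 (0.25), a target and brake of SREBP activation. INSIG1 was at 107, 137, 242, 758 and 552 CPM in intramuscular fat, and at 249, 161, 202, 1083 and 798 CPM in subcutaneous fat. MID1IP1 was at 294, 338, 419, 1087 and 831 CPM in intramuscular fat, and at 506, 543, 619, 1688 and 1915 CPM in subcutaneous fat. Heifers 4 and 5 were the highest for ACLY, INSIG1, MID1IP1, SREBF1 and MLXIPL in both depots, whereas ACSS2, PC and ME1 were not highest in these heifers in subcutaneous fat. This grouping of heifers was seen in the values and was not tested.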

How the data were processed

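Libraries were assigned to depot and heifer number by their titles. No label states which libraries come from the same heifer. The numbers were taken to pair samples because the design text gives the same 5 heifers for both depots, and same-numbered libraries deviated together weakly (r = 0.10, 0.18, 0.18, 0.16 and 0.24). The submitters' processing notes name STAR 2.7.11a, featureCounts 2.0.2, Trimmomatic 0.39 and DESeq2 1.42.0. Per the labels' protocols, libraries had a dUTP second strand and 10 PCR cycles. The authors deposited raw counts per gene. The same table holds the authors' mean counts per depot (another value, not used in tests), the authors' DESeq2 base mean (a depth-scaled signal), a deposited log2 fold change, a deposited test score, and deposited p-values. No source used here gives the genome build or strand setting.

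From the counts, edgeR 4.0.16 (R 4.3.3) gave TMM-scaled CPM and two-sided quasi-likelihood tests over 12521 genes kept by filterByExpr (153 removed), with Benjamini-Hochberg adjustment at 0.05 and standard errors from the test statistic. Heifer as a block, DESeq2 1.42.0, limma 3.58.1 voom, other scalings and left-out libraries were alternatives. Log2 CPM used a prior count of 2. Scripts were tested on simulated data. The 9 genes and all lists were chosen with earlier results of these data known. Named are the 9 genes, pathway list genes past the threshold (else the 2 of smallest p), nearest genes, and, chosen after their values were seen, FABP4, NMRK2, LRRC30, ANO5, CACNG6, ACACB, SREBF1, INSIG1, MID1IP1, MLXIPL, ADIPOQ, PLIN1 and pathway genes called by the blocked fit, of which 1 is not reported here. Cell type marker lists are given by counts. P-values of the unblocked and permutation tests rest on the spread between libraries of a depot and leave the pairing out. Those of the blocked fit and the sign flips rest on how the depot difference varied between these heifers.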

Additional observations from a re-analysis of the deposited data

Results flagged for a closer look

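IDH1 in intramuscular fat of heifer 1 was at 258 CPM, with 0.719 of the depot's whole range between it and the nearest other value, above Dixon's 95% critical value of 0.71 for 5 samples. Of 48 groups of 5 values looked at in this way it was the 1 that passed. Chance gives about 1 in 20, so 1 of 48 is no more than chance gives, and the groups share the same libraries. The same library was the lowest intramuscular value for 9 of the 9 genes and had the fewest adipocyte and the most muscle transcripts. Their part in the IDH1 value was not tested.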

How the results depend on the processing

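In intramuscular fat, 843 of the tested genes passed as higher and 685 as lower. DESeq2 gave 1369 higher and 1171 lower, the fit with the replicate block 1018 and 870, and leaving out 1 library 495 to 1009 and 262 to 892. The lowest counts, 495 and 262, came without intramuscular fat of heifer 3. The lower count was 371, 374, 442 and 357 without intramuscular fat of heifers 1, 2 and 5 and subcutaneous fat of heifer 3. Without intramuscular fat of both heifers 1 and 3 there were 302 higher and 67 lower. Of the 9 genes, 2 were lower: 1 with upper-quartile scaling, where PGD did not pass (edgeR adjusted p = 0.0506), 5 with DESeq2, 5 with the replicate block, 1 to 2 leaving out 1 library and 0 without both libraries. The cause was not tested. ACLY reversed (log2 fold change -0.77 to 0.00500 leaving out 1 library), as did ACACA/FASN (-0.111 to 0.0820) and THRSP minus the adipocyte mean (-0.0840 to 0.262). Against ADIPOQ and PLIN1 alone, ACLY (-0.30) and THRSP (-0.55) reversed. The 9 genes kept a negative log2 fold change under the other alternatives run. The lowest value, ME1 in intramuscular fat of heifer 1, rested on 790 counts. Library totals were lower in intramuscular fat on average, and the part of depth was not tested.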
